A study of Mus musculus with 6 samples.

Results

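Cell cycle genes are 44 genes that cells use to copy their DNA and to divide, 44 of the 32285 genes in the deposited table. The members were named by symbol from their known roles and all 44 were matched. The rule uses no measured value, though the list was drawn up with earlier results of these data known. They comprise 12 replication members and 32 mitosis members, in 8 groups by role. The nuclei came from frozen forebrain of littermate mice at postnatal day 16, 3 WT and 3 Npc1-/-, and were profiled by droplet single-nucleus RNA sequencing (10x Genomics, 3' chemistry with unique molecular identifiers, UMIs). Npc1-/- animals carry the Npc1nih null allele in all cells and lack the lysosomal cholesterol transporter NPC1, and all animals were F1 hybrids of BALB/cJ and C57BL6/J parents heterozygous for that allele. The barcodes carry a suffix from 1 to 6 that names a library, and no source used here ties a suffix to a mouse. WT and Npc1-/- nuclei were therefore described together, no comparison of genotypes was made, and libraries were never used as replicates of a group. Npc1 itself lay between 25.5 and 32.2 CPM (UMIs of the gene scaled by all UMIs of the library) over the 6 libraries, with a median of 29.6.

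A dividing cell first licenses and copies its DNA in S phase and then condenses, aligns and separates its chromosomes in mitosis, and each step needs its own set of proteins. Many of these genes are transcribed only as a cell passes through the cycle: E2F factors act on genes of the G1/S transition, and the MuvB complexes act on genes of G2 and mitosis through the CHR element (cell cycle genes homology region). In the juvenile forebrain, oligodendrocyte precursor cells (OPCs) divide throughout the tissue, neuroblasts for the olfactory bulb arise from the lateral ventricle wall, and mature neurons do not divide.

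The 2 families of promoter letters named above divide the members, and 7 promoter windows are shown because they hold these letters in genes that the results below turn on. The sequences are from RefSeq (GRCm38.p6), read 5′ to 3′ on the strand of the gene, from 150 bases before to 50 bases after the transcription start. Capitals mark the letters of the CHR element, of the CCAAT box and of E2F motifs, spelled out below, on either strand.
Ccnb2 promoter window (chr9:70421505-70421704, minus strand): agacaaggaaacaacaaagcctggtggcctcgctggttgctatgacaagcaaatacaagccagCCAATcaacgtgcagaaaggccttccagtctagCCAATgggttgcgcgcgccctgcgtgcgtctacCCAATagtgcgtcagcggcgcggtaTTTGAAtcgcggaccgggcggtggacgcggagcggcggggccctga
Cdk1 promoter window (chr10:69352863-69353062, minus strand): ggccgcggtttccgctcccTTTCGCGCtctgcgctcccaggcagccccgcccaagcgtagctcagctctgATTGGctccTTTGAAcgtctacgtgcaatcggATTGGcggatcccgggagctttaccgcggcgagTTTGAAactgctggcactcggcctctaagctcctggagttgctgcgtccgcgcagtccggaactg
Top2a promoter window (chr11:99024140-99024339, minus strand): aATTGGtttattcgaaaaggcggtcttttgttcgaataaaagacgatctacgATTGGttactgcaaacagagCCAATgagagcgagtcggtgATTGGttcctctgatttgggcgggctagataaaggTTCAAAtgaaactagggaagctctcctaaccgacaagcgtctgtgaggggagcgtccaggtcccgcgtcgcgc
Kif11 promoter window (chr19:37376232-37376431, plus strand): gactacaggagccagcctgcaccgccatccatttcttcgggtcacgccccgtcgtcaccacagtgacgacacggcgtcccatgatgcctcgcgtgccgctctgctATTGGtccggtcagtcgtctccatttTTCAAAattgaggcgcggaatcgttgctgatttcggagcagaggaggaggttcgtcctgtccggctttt
Mcm5 promoter window (chr8:75109359-75109558, plus strand): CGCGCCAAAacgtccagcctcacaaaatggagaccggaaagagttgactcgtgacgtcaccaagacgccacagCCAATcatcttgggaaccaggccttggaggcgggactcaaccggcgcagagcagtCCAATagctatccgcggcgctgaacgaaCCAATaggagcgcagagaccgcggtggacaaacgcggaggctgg
Mcm6 promoter window (chr1:128359656-128359855, minus strand): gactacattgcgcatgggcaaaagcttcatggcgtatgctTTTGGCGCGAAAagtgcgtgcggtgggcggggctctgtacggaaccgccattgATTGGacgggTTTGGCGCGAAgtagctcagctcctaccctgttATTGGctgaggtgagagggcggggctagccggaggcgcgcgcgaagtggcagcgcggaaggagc
Pola1 promoter window (chrX:93632106-93632305, minus strand): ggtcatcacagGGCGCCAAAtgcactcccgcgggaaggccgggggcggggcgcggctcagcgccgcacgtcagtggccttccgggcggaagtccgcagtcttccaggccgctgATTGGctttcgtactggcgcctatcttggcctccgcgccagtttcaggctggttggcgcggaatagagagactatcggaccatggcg
The first 4 are mitosis members and the last 3 are replication members. Ccnb2, cyclin B2, held CHR letters in this window 4 bases after the start and 3 CCAAT that begin 87, 54 and 21 bases before it. Cdk1, the kinase that drives entry into mitosis, held CHR letters 15 and 71 bases before the start and was one of 3 members with all 3 kinds of letters. Top2a and Kif11 held CHR letters on the other strand, 23 and 19 bases before the start. Mcm5, Mcm6 and Pola1 held E2F letters and no CHR letters, and those of Mcm5 and Pola1 lie at the far end of the window from the start.

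Over the longer window of 250 bases before to 50 bases after the start, 39 of 44 members had a RefSeq promoter. Tpx2, Aurkb, Ccna2, Atad2 and Mcm4 had none in the table used. CHR letters (TTTGAA) were in 23 of 29 mitosis members and 1 of 10 replication members, against 17.9% of all 32851 promoters of that length. E2F letters (any of TTTGGCGC, TTTCGCGC, TTCGCGCC, TTGGCGCC and TTTCCCGC, which can overlap each other) were in 6 of 10 replication members and 5 of 29 mitosis members, against 2.78% of all promoters. The members thus divided by letters largely as they divide by role. CCAAT was in 23 of 29 mitosis members and 9 of 10 replication members, against 37.4%. CHR letters within 50 bases of the start were in 21 of 29 mitosis members, 0 of 10 replication members and 4.94% of all promoters. With only the 150 bases before the start searched, CHR letters were in 10 of 29 mitosis members, since many lie at or just after the start. A pair of CCAAT on 1 strand 31 to 33 bases apart was in Aurka, Ccnb1, Ccnb2 and Cdk1 among the mitosis members, in Brip1 among the replication members, and in 0.794% of all promoters. The last count within 50 bases and the CCAAT spacing were chosen after the first counts were seen. These are matches of letters in a window, not sites of binding.

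The 6 libraries held 8217 to 16118 barcodes with a median of 4469 to 5439 UMIs each, 497750379 UMIs in all. Of 75878 barcodes, 75867 had a mitochondrial share below 10% and were kept, and 1264 had 16 bases that occur in another library too. The members together took 124165 UMIs, or 249 CPM, so most nuclei held few or none of them. Nuclei were placed in 15 gates by lists of 8 marker genes that contain no member, and 54.7% of nuclei entered no gate. In 14 gates all 8 markers were at least 2-fold above their level in all nuclei, and in the inhibitory neuron gate 7 of 8 were. Some lists were also raised in a neighbouring gate: all 8 pericyte markers were at 2.19-fold or more in endothelial nuclei (median 3.35, against 24.4 in the pericyte gate), as were 4 of 8 committed oligodendrocyte markers at 2-fold in OPCs and 5 of 8 in mature oligodendrocytes. The gates used most here are OPC (3990 nuclei), neuroblast (300), astrocyte (8137), endothelial (3491), pericyte (602), microglia (2551) and 3 neuron gates joined as neurons (9923), the background for a cell type that should not divide. Intervals below are exact 95% intervals that cover counting error only, and a pooled value joins nuclei of both genotypes.

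Mitosis members were highest in the neuroblast and OPC gates. Their summed level was 575 CPM in neuroblasts and 400 CPM (391 to 409) in OPCs, against 86.2 CPM in neurons. In the 6 libraries the OPC sum was 471, 345, 352, 318, 605 and 383 CPM, and the neuron sum lay between 78.4 and 102 CPM. The lowest OPC library was above the highest neuron library. Relative to neurons the OPC sum was higher by 2.21 on the log2 scale (2.17 to 2.26) and the neuroblast sum by 2.74 (2.66 to 2.82). Scaling by TMM factors, which centres the bulk of genes, lowered the 2 values to 1.95 and 2.43.

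Replication members differed less between gates. Their sum was 181 CPM in OPCs, 236 CPM in neuroblasts and 106 CPM in neurons. That is a log2 difference from neurons of 0.77 (0.72 to 0.83) for OPCs and 1.16 (1.04 to 1.27) for neuroblasts, or 0.51 and 0.85 with TMM. The OPC sum lay between 154 and 227 CPM over the libraries and the neuron sum between 103 and 112 CPM, without overlap. In endothelial, pericyte, astrocyte and microglia gates the log2 difference was 0.40, 0.29, 0.11 and 0.13, and with TMM it turned to -0.02, -0.18, -0.24 and -0.25, so no direction is given for the sum in these 4. Pola1, described below, makes up much of each sum. Taken one by one, the 12 members had a median log2 difference of 1.53 in OPCs and 1.43 in neuroblasts, beside 0.24 and 0.23 over all genes. In the other 4 gates, in the order above, it was 1.18, 1.00, 0.60 and 0.74, beside 0.38, 0.37, 0.36 and 0.30.

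Counted one by one, 36 of 44 members were at least 2-fold higher in OPCs than in neurons with the interval above 1, which is the call used here. The same call was made for 12.8% of the 20256 genes tested, and with TMM for 33 members and 8.48% of genes. In neuroblasts 38 members were called, against 7.64% of genes, and with TMM 33, against 4.76%. In pericytes 30 members were called, against 20.6% of genes, and in endothelial nuclei 26, against 28.2%. With TMM these counts were 22, against 11.9% of genes, and 18, against 18.3%. Astrocytes had 14 members called, against 24.8% of genes, and with TMM 6, against 16.3%. Microglia had 11, against 15.4%, with TMM 7, against 9.44%, and without the 10% of nuclei with the highest doublet scores 19, against 25.2%. Committed oligodendrocytes had 13, against 12.1%, and with TMM 7, against 8.70%. Mature oligodendrocytes had 10, against 13.2%, and with TMM 9, against 11.2%. In astrocytes the share of members called was thus near that of all genes, whereas in OPCs and neuroblasts most members were called.

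**Figure D1:**
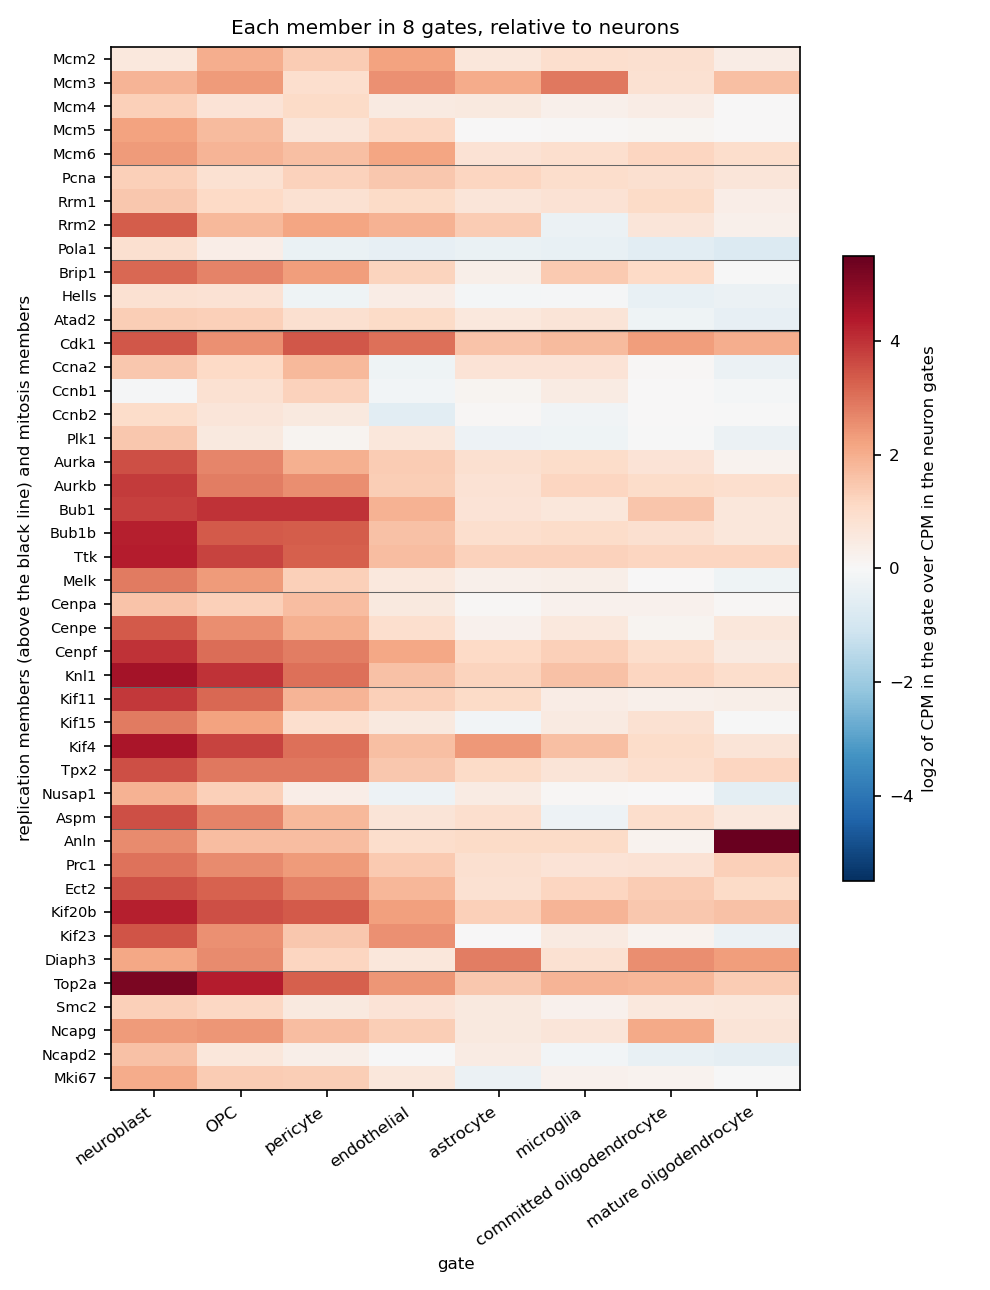
Log2 of the CPM of each member in 8 gates over its CPM in the neuron gates, with 1 row per member grouped by role and 1 column per gate. Red is higher than in neurons and blue lower. All 8 columns are red in most rows, from 30 of 44 members in mature oligodendrocytes to 43 in neuroblasts and 44 in OPCs. Pola1 is near 0 or below in all columns but those of neuroblasts and OPCs, and Anln stands out in mature oligodendrocytes.

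The genes of replication licensing encode subunits of the MCM helicase, which opens the DNA ahead of the fork. In OPCs Mcm2, Mcm3, Mcm5 and Mcm6 were called, with log2 differences from neurons of 2.01, 2.36, 1.74 and 1.89, and Mcm4 at 0.75 was not. Mcm6 had the most UMIs of the group, with 4.82, 4.83, 6.95, 4.84, 11.1 and 10.2 CPM in the OPCs of the 6 libraries and 1.07 to 2.41 CPM in neurons. Every OPC library was above every neuron library, at levels that rest on 123 UMIs in all. In endothelial nuclei, whose share of genes called is high, Mcm2, Mcm3 and Mcm6 were called as well, at 2.20, 2.501 and 2.16.

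Among the genes of DNA synthesis, the ribonucleotide reductase subunits Rrm1 and Rrm2, which make deoxynucleotides, were called in OPCs at 1.10 and 1.77. Pcna, the sliding clamp of the polymerases, was at 0.83 and was not called. Pola1, the catalytic subunit of DNA polymerase alpha, was at 80.6 CPM in OPCs and 63.2 CPM in neurons, a log2 difference of 0.35 (0.27 to 0.43). Its libraries ran from 69.9 to 97.5 CPM in OPCs and from 60.3 to 67.7 CPM in the joined neurons. These 2 groups did not overlap but lay close. This was the smallest difference of the 44 members in OPCs. In addition 36.5% of neurons held a UMI of it, and it made up 5968 of the members' UMIs there. The 3 neuron gates differed in Pola1, at 85.0 CPM in inhibitory, 73.0 CPM in striatal and 39.5 CPM in excitatory neurons. Its libraries ran from 77.2 to 94.9 CPM in inhibitory and from 30.4 to 45.1 CPM in excitatory neurons. OPCs thus overlapped inhibitory neurons and lay above excitatory neurons.

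Of the replication-linked genes of chromatin and repair, Brip1, a helicase of the Fanconi anaemia pathway, was called in OPCs at 2.73 and Atad2, a bromodomain ATPase, at 1.32. Hells, a chromatin remodeller of the SNF2 family, was at 0.78 and was not called. Atad2 had the most UMIs, with 30.7, 24.9, 26.5, 23.9, 33.6 and 32.5 CPM in the OPCs of the 6 libraries. In the joined neurons it was at 8.42 to 14.2 CPM, without overlap. By gate, Atad2 was at 17.2 CPM in excitatory, 8.03 CPM in striatal and 6.38 CPM in inhibitory neurons. The highest excitatory library, at 23.9 CPM, was level with the lowest OPC library.

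Of the cyclins and mitotic kinases, the spindle checkpoint kinases stood highest over neurons. Bub1 was at a log2 difference of 3.98 in OPCs, Ttk at 3.72 and Bub1b at 3.35, followed by the Aurora kinases Aurkb (2.81) and Aurka (2.67), Cdk1 (2.51) and Melk (2.35). Ttk, also known as Mps1, was at 9.04, 7.59, 5.92, 5.75, 13.6 and 7.81 CPM in the OPCs of the 6 libraries and at 0.426 to 0.765 CPM in neurons. All OPC libraries were far above all neuron libraries. The mitotic cyclins showed no such contrast: Ccna2 was called at 1.07 (0.43 to 1.69), while Ccnb1 (0.85), Ccnb2 (0.65) and the kinase Plk1 (0.56, with an interval of -0.08 to 1.16) were not. In neuroblasts Ccnb1 was at -0.08 on 7 UMIs, with an interval of -1.41 to 0.98, and ran from -0.82 to 0.32 without 1 library at a time.

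All 4 genes of the centromere and kinetochore, where chromosomes attach to the spindle, were called in OPCs. Knl1, the scaffold that binds the checkpoint proteins, was at 22.3, 15.0, 17.8, 16.9, 38.3 and 9.62 CPM in the 6 libraries and at 0.657 to 2.13 CPM in neurons, a log2 difference of 3.96 (3.66 to 4.27). Its OPC libraries spread widely, and the lowest was still above all neuron libraries. Cenpf was at 3.08, Cenpe, a kinetochore motor, at 2.56, and the centromeric histone Cenpa at 1.32. The value of Cenpa holds against the joined neurons only. Cenpa was at 9.15 CPM in inhibitory, 1.59 CPM in striatal and 1.08 CPM in excitatory neurons. In neuroblasts Knl1 reached 30.05 CPM and a difference of 4.57.

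All 6 genes of spindle motors and microtubule proteins were called in OPCs, from Nusap1 at 1.30 to Kif4 at 3.73. Nusap1, which binds spindle microtubules, had the most UMIs, at 24.7, 21.2, 15.7, 16.3, 24.3 and 21.0 CPM in OPCs and 7.17 to 10.5 CPM in neurons. The groups did not overlap. Kif11, the motor that pushes the spindle poles apart, was at 3.15, Tpx2 at 2.90, Aspm at 2.75 and Kif15 at 2.21.

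All 6 genes of cytokinesis were called in OPCs. Kif20b was at 3.56, Ect2, which activates RhoA at the division plane, at 3.24, Prc1 at 2.62, Diaph3 at 2.61, Kif23 at 2.52 and Anln at 1.70. Diaph3, a formin that builds actin filaments, had the most UMIs, at 60.6, 53.6, 55.6, 49.0, 92.4 and 72.1 CPM in OPCs and 7.82 to 11.7 CPM in neurons. It was also high in other gates, as described below. The gene body of Prc1 is overlapped along its whole length of 21810 bases by Rccd1 on the other strand, and the sources used here do not say whether reads were counted by strand. 6 other members overlap a gene of the table in part, and of these Anln and Ncapd2 do so on their own strand.

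Of the genes of chromosome structure, Top2a, the topoisomerase that untangles DNA, had the largest difference of all members between OPCs and neurons. It was at 41.0, 36.6, 34.0, 26.6, 66.4 and 30.05 CPM in the OPCs of the 6 libraries and at 0.510 to 3.67 CPM in neurons. The pooled difference was 4.33 on the log2 scale (4.09 to 4.58), a fold of 20.1, and in neuroblasts it was 5.16. Mki67, which encodes the proliferation mark Ki-67, was less contrasted, at 14.2, 5.98, 11.1, 10.3, 16.2 and 13.8 CPM in OPCs and 2.77 to 6.40 CPM in neurons. Here the lowest OPC library lay below the highest neuron library, and the difference was 1.41 (1.17 to 1.66). The 3 neuron gates differed in Mki67, at 6.71 CPM in striatal, 2.79 CPM in excitatory and 2.77 CPM in inhibitory neurons. Of the condensin subunits, Ncapg was at 2.43 and Smc2 at 1.16, and Ncapd2 at 0.63 was not called.

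Of the 8 members not called in OPCs, Pola1 was also below its neuron level in pericytes, endothelial nuclei, astrocytes, microglia and both older oligodendrocyte gates, at -0.38, -0.44, -0.36, -0.39, -0.57 and -0.76. No other member was below its neuron level in all 6 of these gates. Neuron level here means the joined neuron gates. Against excitatory neurons alone, at 39.5 CPM, Pola1 was not lower in pericytes (48.5 CPM) or committed oligodendrocytes (42.7 CPM). Levels are not scaled by gene length, so they were compared within a gene and not between genes.

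A UMI of one member says less than several members in 1 nucleus. Nuclei with UMIs of 5 or more different mitosis members are called dividing nuclei here, as a name for that count and not for a phase. There were 895 such nuclei, 1.18% of all (1.10 to 1.26), and 1.06% to 1.34% in the single libraries. The count includes Anln and Diaph3, which were high in some gates also in nuclei that are not dividing, as described below. Shares without these genes are not given, and the part of these genes in the shares was not tested. Because deeper nuclei pass the count more easily, shares are also given with every nucleus thinned to 2000 UMIs. Thinning left out 8229 shallower nuclei, among them 114 of 9923 neurons, 365 OPCs, 11 neuroblasts and 842 astrocytes. It also left out 313 endothelial nuclei, 89 of 602 pericytes and 645 of 2551 microglia, so these thinned shares cover the deeper nuclei of their gates.

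In the OPC gate 213 of 3990 nuclei passed, 5.34% (4.66 to 6.08), and in the 6 libraries 6.82%, 5.09%, 4.50%, 4.46%, 6.78% and 3.83%. Thinned, the share was 4.11% (3.49 to 4.81). In the neuroblast gate 45 of 300 passed, 15.0% (11.2 to 19.6), with 13.3% to 16.3% in the libraries, and 10.0% thinned. With stricter gates (4 markers and 3 more than for another lineage) it was 30.95% (21.3 to 42.0). In neurons 43 of 9923 passed, 0.433%, and 7 of 9809, or 0.0714% (0.0287 to 0.147), once thinned. The OPC and neuroblast intervals lie far above that background in both counts.

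The pericyte share was 2.16% (13 of 602 nuclei) and 1.95% thinned, the endothelial share 1.29% and 0.566%, and the microglia share 1.02% and 0.420%. The thinned pericyte and endothelial intervals lay above that of neurons, with lower bounds of 0.939% and 0.336%. That of microglia did so too, with a lower bound of 0.181%, but library 6 held 10 of the 26 dividing microglia at a share of 2.66%. Without it the microglia share was 0.736%, and 0.286% (0.0928 to 0.665) thinned, which overlaps the neuron interval without that library, 0.0327% to 0.167%. The astrocyte share was 0.406%, within the neuron interval, and 0.192% (0.105 to 0.322) thinned, which overlaps the interval of neurons. The thinned neuron share itself rested on library 5, with 5 of the 7 nuclei. Without library 5 it was 0.0240% (0.00291 to 0.0868), against 0.175% (0.0873 to 0.313) in astrocytes. By gate, 5 of the 7 nuclei were among the 2689 inhibitory neurons. Excitatory neurons held 1 of 3120 and striatal neurons 1 of 4000. The gate rule treats the inhibitory neuron gate as related to the neuroblast gate, and its part in the neuron background was not tested. The mature oligodendrocyte share fell from 1.23% as counted to 0.101% (2 of 1977) thinned, and that interval also overlaps the one of neurons. At 3 or more members, without thinning, neurons at 4.13% passed more often than astrocytes at 3.05%. OPCs passed at 8.25%, above both. The median depth was 8228 UMIs in neurons and 3609 in astrocytes, and its part in these shares was not tested beyond the thinning.

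**Figure D2:**
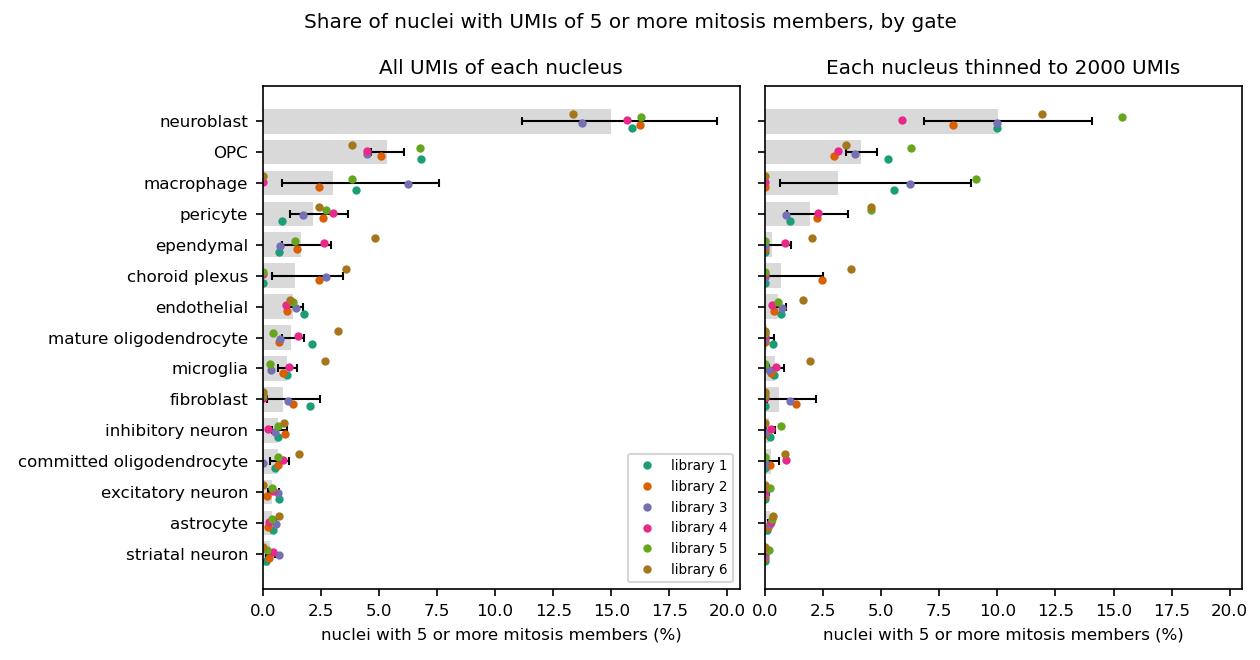
Share of nuclei with UMIs of 5 or more mitosis members in each gate, in percent, from all UMIs (left) and with each nucleus thinned to 2000 UMIs (right). Gray bars are pooled shares, black lines exact 95% binomial intervals and dots the 6 libraries. Neuroblasts and OPCs lead in both panels, while mature oligodendrocytes drop from 1.23% to 0.101%.

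The number of mitosis members per nucleus, with all UMIs, set OPCs above neurons at every number from 5 to 27 but 26, and not at 1 to 4 members. No member was held by 56.9% of OPCs and 51.9% of neurons, 1 member by 27.4% and 32.1%, 2 by 7.37% and 11.9%, and 3 by 2.23% and 3.00%. Thinned to an equal depth, OPCs were above neurons at these numbers too, with 19.6% against 14.2% at 1 member, 2.48% against 1.23% at 2 and 0.80% against 0.0612% at 3, and 72.3% against 84.5% held none. Dividing OPCs held a median of 13, up to 27. Dividing neuroblasts held a median of 16. The 43 neurons that passed held a median of 6, up to 26, had a median depth of 16389 UMIs against 8206 in other neurons, and 51.2% of them were among the 10% of nuclei with the highest doublet score in their library. That proportion was 16.9% in dividing OPCs, 11.1% in dividing neuroblasts and in dividing endothelial nuclei, 24.2% in dividing astrocytes, 38.5% in the 13 dividing pericytes, 54.5% in the 11 dividing committed oligodendrocytes, 53.8% in dividing microglia and 63.0% in dividing mature oligodendrocytes. The part of droplets with 2 nuclei in these counts was not tested beyond leaving out those nuclei, which took the neuron share to 0.239%.

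**Figure D3:**
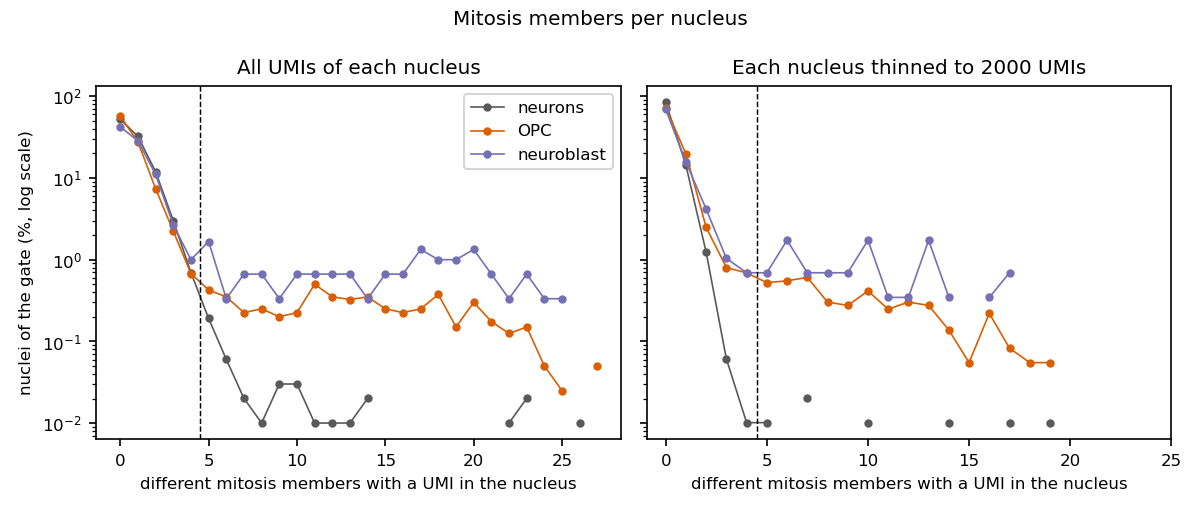
Percent of nuclei (log axis) by the number of different mitosis members with a UMI, for neurons, OPCs and neuroblasts, with all UMIs (left) and after thinning to 2000 UMIs (right). The dashed line marks the minimum of 5 members and numbers held by no nucleus are not drawn. Beyond the line OPCs and neuroblasts lie above neurons at nearly every number, while single neurons reach 26 members on the left and 19 on the right, about as far as OPCs (27 and 19) and neuroblasts (25 and 17).

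Of the 895 dividing nuclei, 23.8% were in the OPC gate, 5.03% in the neuroblast gate and 5.03% in the endothelial gate, and 417 (46.6%) were in no gate. Of those 417 nuclei, 27.6% held 3 or more positive astrocyte markers, 20.9% did so for OPC markers and 19.2% for endothelial markers. 53.5% did so for 2 or more lists, against 16.8% of the other nuclei without a gate, and 37.2% had a high doublet score. Their types are not named here.

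Members differed in how well a single UMI marked a dividing nucleus. For each gene the share of nuclei with a UMI of it that also held 5 or more other mitosis members was taken over all nuclei. Bub1 led with 59.7% (and with 73 of 82 nuclei in the OPC gate), followed by Ttk (47.0%), Aurkb (44.4%), Knl1 (43.9%), Top2a (40.7%) and Bub1b (40.4%). Mki67 stood at 20.4%. At the low end, Pola1 was at 3.15%, Pcna at 3.35%, Mcm4 at 4.44%, Hells at 5.08%, Ncapd2 at 6.37% and Diaph3 at 6.54%, against 1.18% of all nuclei that are dividing. Among replication members Brip1 was highest, at 27.9%, above Mki67. In the OPC gate the same share was 67.7% for Top2a, 61.5% for Mki67, 60.6% for Brip1 and 12.9% for Pola1, and in neurons it was 16.04% for Top2a (9.63 to 24.4) and 2.74% for Mki67 (1.32 to 4.98). Beside these stand the shares of all nuclei that are dividing, 5.34% in OPCs and 0.433% in neurons.

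**Figure D4:**
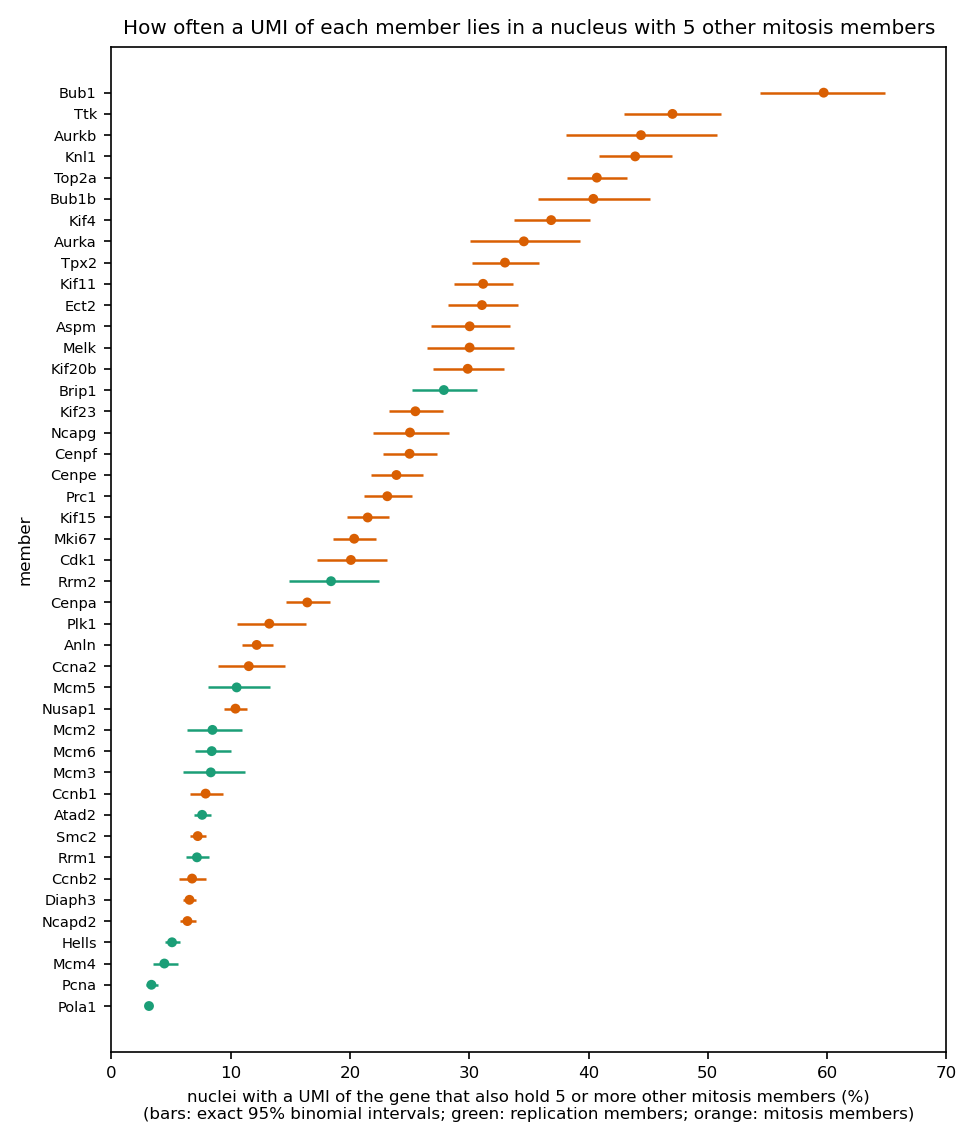
For each member, the percent of nuclei with a UMI of it that also hold UMIs of 5 or more other mitosis members, with exact 95% binomial intervals, over all gates together. Orange marks mitosis members and green replication members. Bub1 leads at 59.7%, Brip1 is the highest green point at 27.9%, and Pola1 is lowest at 3.15%.

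The replication members did not choose the dividing nuclei, so their level there can be read apart from that choice. The list itself was drawn up with earlier results of these data known. In the OPC gate, 10 of 12 were at least 2-fold higher in the 213 dividing nuclei than in the other 3777, against 3.52% of the 16271 genes tested that are no mitosis member. None was lower by 2-fold, beside 1.2% of those genes. Brip1 differed most, by 4.89 on the log2 scale (4.43 to 5.36), from 3.34 CPM in other OPCs to 99.2 CPM. Its dividing OPCs were at 72.5, 102, 109, 69.5, 119 and 216 CPM in the 6 libraries, and the others at 5.35, 1.95, 2.17, 4.17, 5.12 and 1.88 CPM. Every library showed the difference without overlap.

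Rrm2 was higher by 3.33 (2.23 to 4.39), on 14 UMIs in dividing OPCs, and by 2.78 to 4.03 without 1 library at a time. Atad2 was higher by 3.31, Rrm1 by 2.69, Mcm5 by 2.32, Mcm2 by 2.08, Mcm4 by 2.00, Mcm6 by 1.94, Pola1 by 1.91 and Hells by 1.75. Atad2 was at 145 to 262 CPM in the dividing OPCs of the 6 libraries and at 15.4 to 23.1 CPM in the others. In OPCs as a whole Pola1 was close to its level in the joined neurons. It was at 256 CPM in dividing OPCs and 68.4 CPM in the others, with libraries from 192 to 355 CPM and from 59.6 to 81.9 CPM. The exceptions were Mcm3 at 1.34 (-0.20 to 2.61, on 6 UMIs, and 1.06 to 1.97 without 1 library at a time) and Pcna at 0.85 (0.24 to 1.41). The sum of the 12 members was higher by 2.02, 2.36, 2.57, 2.17, 2.49 and 2.78 in the 6 libraries.

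In endothelial and pericyte nuclei together, 58 dividing nuclei were set against 4035 others, and 7 of 12 replication members were called higher, against 4.49% of genes, and none lower, against 2.89%. Brip1 again differed most, by 4.48 (3.77 to 5.18), then Rrm2 by 3.38 on 11 UMIs and Atad2 by 2.25, and Mcm3 and Mcm6 were at 0.43 and 0.18 on 2 and 6 UMIs. Over all gates but neurons, with 435 dividing nuclei, 11 of 12 were called higher, against 3.5% of genes, and none lower, against 2.36%. Pcna at 0.61 was the one not called. The neuroblast gate alone had 45 dividing nuclei, under the minimum of 50 for this comparison.

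Genes of the cell cycle that are no member were read from lists chosen by function. In dividing OPCs 36 of 37 other mitosis genes were called, with a median log2 difference of 5.15, and Cit, which encodes citron kinase, was the exception at 0.85. Of other replication genes 31 of 36 tested were called, with a median of 2.28, among them Clspn (4.74), which stabilizes stalled forks, the repressor E2f7 (5.54) and Cdc45 (4.03), while Mcm7 (0.63), Dut (0.50), Rfc3 (0.79), Ccne1 (0.81) and Gins2 (1.01) were not called. The median over all genes tested was -0.03. Beside the OPC counts of these 2 lists and of the 2 that follow, 3.52% of the 16271 genes tested that are no mitosis member were called higher. None of 6 G1 cyclins and kinases was called, from Cdk4 at -0.47 (-1.45 to 0.36) to Cdk2 at 1.05 (-0.01 to 1.97). Their sum was at -0.17, 0.03, 0.25, 0.67, 0.32 and 1.11 in the 6 libraries. Its interval lay above 0 in library 4 (0.14 to 1.15) and library 6 (0.27 to 1.85). Over all gates but neurons 2 of the 6 were called, against 3.5% of genes. Of 10 inhibitors, Cdkn2c (4.26), an inhibitor of CDK4 and CDK6, and Rbl1 (2.51), a relative of the retinoblastoma protein, were called, and Cdkn1a was at -0.89 (-2.79 to 0.51). In dividing endothelial and pericyte nuclei 3 of the 6 G1 genes were called, against 4.49% of genes. They were Ccnd2 at 1.41, Cdk6 at 1.24 and Cdk2 at 1.02. Whether the 2 gates differ in this was not tested.

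The genes of largest fold in dividing OPCs outside the members, among genes with 50 or more UMIs there and higher in every library, were Kif2c, Depdc1a, Kif14, Iqgap3, Lockd, Cdca2, Esco2, Gm3550, Dlgap5 and Ndc80. Kif2c, a motor that takes microtubules apart, had 80 UMIs in dividing OPCs and 1 in the others, a log2 difference of 10.2 (7.64 to 15.5). Lockd, a long noncoding RNA (chr6:134929092-134956798, GRCm38), was at 195 CPM in dividing OPCs and 0.907 CPM in the others, a difference of 7.75. Ndc80, a kinetochore protein that grips microtubules, differed by 7.12.

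Replication and mitosis members met in the same nuclei. Of dividing OPCs, 50.2% (43.3 to 57.1) held UMIs of 3 or more replication members, against 3.42% of other OPCs. Thinned to 2000 UMIs the shares were 18.8% and 1.21%. In neuroblasts they were 68.9% and 6.27%, and 24.1% and 1.92% thinned.

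A further 129 OPCs held 3 or more replication members and fewer than 5 mitosis members. In these nuclei 22 of 34 other replication genes tested were called against OPCs with neither, beside 1.57% of all genes tested, and the summed list was higher by 1.48 on the log2 scale (1.36 to 1.61). Among those called were Clspn, Mcm10, Cdc45, Cdt1 and Uhrf1. Of other mitosis genes, which did not choose the nuclei, 8 of 20 tested were called and the sum was higher by 0.57 (0.39 to 0.74). The mitosis members themselves are limited by the choice of nuclei and are not compared. In neurons the same choice gave 254 nuclei in which 0 of 36 other replication genes were called, with a sum at -0.01 (-0.12 to 0.09) and 0.673% of genes called. Their median depth was 14482 UMIs against 8101 in neurons with neither, compared with 4732 against 3606 in OPCs. The neurons chosen in this way were deeper and not higher in other replication genes, whereas the OPCs were deeper and higher.

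Some mitosis members were high in nuclei that are not dividing. 3 of these cases were chosen after their values were seen. Anln, whose protein is also a scaffold of mature myelin, was at 94.7, 103, 109, 165, 165 and 135 CPM in the mature oligodendrocytes of the 6 libraries, against 1.62 to 3.57 CPM in neurons. All 6 libraries were far above neurons. In mature oligodendrocytes with fewer than 5 mitosis members it was at 120 CPM, against 2.48 CPM in committed oligodendrocytes, 3.34 CPM in OPCs and 2.56 CPM in neurons. Of 657 mature oligodendrocytes with a UMI of Anln, 10 held 5 other mitosis members. The summed mitosis members were higher in mature oligodendrocytes than in neurons by 1.59, by 0.76 without Anln and by 0.33 without Anln and Diaph3. Anln overlaps Gm48646 on the same strand over 1228 bases, and the part of that gene was not tested.

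Diaph3 was at 61.3, 62.6, 65.9, 64.7, 91.6 and 91.2 CPM in the astrocytes of the 6 libraries, a level above all neuron libraries. In astrocytes with fewer than 5 mitosis members it was at 68.2 CPM, in committed oligodendrocytes at 57.4 CPM, in ependymal nuclei at 58.1 CPM and in OPCs at 39.8 CPM, against 9.55 CPM in neurons. It made up 37.8% of the mitosis UMIs of astrocytes, whose summed difference from neurons fell from 1.09 to 0.56 without Anln and Diaph3. In OPCs the sum without both was 2.17, against 2.21 with them.

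Kif11 was at 27.1, 16.9, 26.2, 21.3, 27.7 and 60.98 CPM in the ependymal nuclei of the 6 libraries, which line the ventricles and carry motile cilia, against 1.02 to 2.63 CPM in neurons. In ependymal nuclei with fewer than 5 mitosis members it was at 23.2 CPM (18.7 to 28.5), against 2.77 CPM in astrocytes and 1.52 CPM in neurons. No other gate of the 6 compared in this way passed 3 CPM.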

How the data were processed

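Single-nucleus RNA-seq was done on the forebrain of 3 WT and 3 Npc1-/- littermates. The values in the deposited matrix are raw UMI counts, 1 whole number for each gene in each barcode. Its file header names Cell Ranger 6.0.0, and the submitters' processing notes name Cell Ranger 2.1.1 and mm10. In the study's methods, reads were aligned to GRCm38 by STARsolo, empty droplets, doublets (DoubletFinder) and nuclei rich in mitochondrial UMIs were removed, and values were imputed. The sources used here do not say which of these steps the deposited matrix went through, nor whether reads were counted by strand. No imputed value was used.

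The members, marker lists and gene lists were chosen with earlier results of these data known. Nuclei at or above a mitochondrial share of 10% were left out (11 nuclei). A marker counted as positive where its share of a nucleus' UMIs was at least 2 times its share of the library's UMIs. A nucleus entered a gate with 3 or more positive markers of 8, at least 2 more than for any gate of another lineage and at least 1 more than for a related gate, a rule set after the data were seen. Members were summed per gate and divided by all UMIs of the gate. Intervals are exact 95% intervals (Poisson for levels, Clopper-Pearson for shares, and the binomial distribution of 1 count given the sum of both for ratios) and cover counting error only. UMIs of 1 nucleus are not independent, so true errors are wider. A gene was tested with 20 or more UMIs in both groups together and called at 2-fold with the interval on the same side. This is a description with no p-value, since no key ties libraries to mice. The ratio code was tested on simulated data. For a count of 0, a share of up to 3 counts of the total is allowed.

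Genes with values per library were Top2a, Mki67 and the member with the most UMIs in OPCs of each role group, and leading genes outside the members were the 10 of largest fold in dividing OPCs with 50 or more UMIs, higher in every library. Doublets were not removed. A doublet score per nucleus, the share of simulated doublets among its nearest neighbours within its library, served as an alternative. Gene positions are GENCODE vM21 (GRCm38.p6), and promoter sequences are RefSeq. Python 3.11.15, numpy 2.4.6, scipy 1.17.1, pandas 2.3.3 and scikit-learn 1.9.0 were used, with TMM factors from edgeR 4.0.16 (R) over the summed counts of the gates. Alternatives were other gate rules, filters, thresholds and scalings, and leaving out each library.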

Additional observations from a re-analysis of the deposited data

Results flagged for a closer look

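In 3 of 21 sets of 6 library values, 1 library stood far from the other 5 by Dixon's criterion, and chance alone gives about 1 such set in 20. All 3 concern library 6, which held the fewest barcodes. The share of nuclei with 5 or more mitosis members in the microglia gate was 2.66% in library 6, against 0.310% to 1.14% in the other libraries. The summed mitosis members of the microglia gate were at 223 CPM in library 6, against 103 to 124 CPM in the others. Of all dividing microglia 53.8% had a high doublet score, and the part of doublets in the values of this library was not tested. The summed replication members of the astrocyte gate were at 132 CPM in library 6, against 110 to 117 CPM in the others. The mouse behind library 6 is not known, so none of these values is tied to a genotype.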

How the results depend on the processing

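No paired analysis was possible because the labels number the mice 1 to 3 in both groups but the barcode suffixes carry no link to them. Of 451 alternative values of 44 results, 375 stayed within the counting interval or within 1.5 times the main count, 71 moved and 5 changed sign. Of 1252 values of single members, 88 moved and none changed sign. Looser gates, markers at 3-fold, CCAAT spacing, CHR within 50 bases, replication members alone, thinned values without 1 library, and the runs of gene lists and replication members without high doublet scores were chosen after seeing the data. The cause of a move was not tested, except that thinning and thresholds of members change the count itself.

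With TMM scaling, the summed mitosis members relative to neurons (log2) were 1.95 in OPCs, 2.43 in neuroblasts, 0.51 in endothelial nuclei, 1.13 in pericytes, 0.18 in microglia and 0.74 in astrocytes. The replication sum was 0.51 in OPCs and 0.85 in neuroblasts and changed sign in endothelial nuclei (-0.018), pericytes (-0.18), microglia (-0.25) and astrocytes (-0.24). In microglia 7 members were called, against 9.44% of genes, and in astrocytes 6, against 16.3%. With stricter gates the mitosis sum was 2.38 in OPCs and 3.41 in neuroblasts, the replication sum 1.52 in neuroblasts, 0.035 in astrocytes and -0.00568 in microglia, where it changed sign, and the share of dividing nuclei 30.95% in neuroblasts and 0.277% in astrocytes. With looser gates the mitosis sum was 1.99 in OPCs, 2.46 in neuroblasts, 1.00 in endothelial nuclei, 1.35 in pericytes and 1.03 in astrocytes, the replication sum in OPCs 0.67 and the astrocyte share 0.621%. With markers at 3-fold, the mitosis sum was 2.38 in OPCs and 2.87 in neuroblasts, the replication sum 1.29 in neuroblasts and the astrocyte share 0.226%. In astrocytes 9 members were then called, a count with no share of all genes beside it, so it is not read further.

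Without the nuclei of highest doublet score, the mitosis sum was 2.48 in OPCs, 2.82 in neuroblasts, 1.05 in endothelial nuclei, 0.75 in microglia and 1.22 in astrocytes, the replication sum 0.87 in OPCs and 0.33 in microglia, where 19 members were called (25.2% of genes), the neuron share 0.239%, and the replication sum in dividing OPCs 2.59. At 3 or more members the shares were 8.25% in OPCs, 3.27% in endothelial nuclei, 4.65% in pericytes, 3.18% in microglia, 3.05% in astrocytes and 4.13% in neurons, and the replication sum in dividing OPCs was higher by 1.93. At 8 or more members they were 4.34% in OPCs, 0.627% in microglia and 0.161% in neurons, and that sum 2.22. Thinned, the shares were 4.11% in OPCs, 10.0% in neuroblasts, 0.566% in endothelial nuclei, 0.420% in microglia, 0.192% in astrocytes and 0.0714% in neurons, and that sum 2.49. With a minimum of 50 UMIs, 13 other replication genes and 5 other mitosis genes were called in OPCs with replication members alone, counts with no share of all genes at that minimum beside them. In the 150 bases before the start, 10 mitosis members held CHR letters.

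Without 1 library at a time, the mitosis sum ran from 2.14 to 2.28 in OPCs, from 2.63 to 2.82 in neuroblasts, from 0.84 to 1.00 in endothelial nuclei and from 0.39 (without library 6) to 0.64 in microglia. The replication sum in OPCs ran from 0.71 to 0.82 and the thinned neuron share from 0.0240% (without library 5) to 0.0890%. Depth limits what single members can show: Ccnb1 in neuroblasts rested on 7 UMIs and Mcm3 in dividing OPCs on 6.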

Other observations

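Genes of neural progenitors were read in the dividing nuclei from a list of 8 chosen by function. Over all gates but neurons 3 of the 8 were called higher in dividing nuclei, against 3.5% of all genes tested. Gsx2 (2.86 on the log2 scale, on 5 UMIs) and Eomes (1.99, on 10 UMIs) were among the 3, while Egfr was at -0.14 and Pax6 at 0.60. These counts pool gates, and the dividing nuclei held a different mix of them (45 of the 300 neuroblasts were dividing and stood among 435 dividing nuclei set against 24012 others), whose part was not tested. In endothelial and pericyte nuclei 0 of 4 tested were called, against 4.49% of genes. Egfr and Pax6 are given by gate and were chosen after their values were seen. Egfr, the receptor that marks activated stem cells and transit-amplifying cells of the ventricle wall, was at 517 CPM (439 to 605) in the 33 dividing nuclei of the astrocyte gate and was detected in 25 of them. It was at 101 CPM in dividing neuroblasts, 24.4 CPM in dividing OPCs and 115 CPM in the 417 dividing nuclei without a gate, where 42.9% of nuclei held a UMI of it. These Egfr levels are not set here against other nuclei of the same gates, so they do not show a rise in dividing nuclei. Pax6, a transcription factor of neural progenitors, was at 79.6 CPM (59.4 to 104) in dividing neuroblasts, 60.0 CPM in dividing nuclei of the astrocyte gate and 21.1 CPM in dividing OPCs. In OPCs Pax6 was higher in dividing than in other nuclei by 1.60 on the log2 scale (0.93 to 2.22). It was the one gene called among 4 of the list that could be tested there, against 3.52% of genes. The high doublet score was found in 24.2% of the dividing nuclei of the astrocyte gate, and its part in these levels was not tested.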
